A study of Mus musculus with 6 samples.

Results

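The genes described here are 10 Toll-like receptor genes and partners, taken by symbol from the 31053 genes listed in the count tables. They are the receptors Tlr7, Tlr8, Tlr9, Tlr2 and Tlr4, the co-receptor Cd14, the chaperone Unc93b1, and the signal proteins Myd88, Irak4 and Irf5. They were measured by 10x Genomics 3′ single-cell RNA sequencing of dorsal skin from female C57BL/6 mice aged 8 to 10 weeks, with no sort of the cells, in 6 libraries that each pooled several mice. The Sham group was untreated, the IMQ group received 62.5 mg of 5% imiquimod cream daily on the shaved back for 4 days, and the IMQ+SHP099 group received the same cream and 10 mg/kg of SHP099, an inhibitor of the phosphatase SHP2, daily by gavage for 4 days. Each group has 2 libraries (n = 2), no group received SHP099 without imiquimod, and none received cream without imiquimod.

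Toll-like receptors recognise microbial molecules and start inflammation. Tlr7 and Tlr8 bind single-stranded RNA and Tlr9 binds unmethylated DNA inside endosomes, where Unc93b1 carries them, whereas Tlr2 and Tlr4 detect bacterial lipoproteins and lipopolysaccharide at the cell surface, Tlr4 with the help of Cd14. The adaptor Myd88 and the kinase Irak4 pass the signal on to transcription factors that include Irf5. Imiquimod is a ligand of Tlr7, and its cream is widely used to produce psoriasis-like inflammation in mouse skin.

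After filters, 50850 of 55201 barcodes were kept, 7382 to 10293 per library, with a median of 5645 to 18263.5 UMIs per cell. A UMI marks 1 captured RNA molecule, and levels below are UPM, the UMIs of a gene per 1000000 UMIs of the cells named. Sham replicate 1 and IMQ+SHP099 replicate 1 stood apart from the rest. Keratinocytes made up 69.8% and 63.9% of their cells, against 6.37% to 22.9% in the other 4 libraries, and only 280 and 203 of their cells were myeloid, against 472 to 994. Pairs of libraries shared 12 to 30 cell barcodes. The cell classes were rebuilt by clustering without the 10 genes, and the ending "-like" is given to every myeloid subset, since its name rests on marker genes.

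The genes lie on several chromosomes of the mouse genome GRCm38. The GENCODE M21 annotation places Tlr7 at chrX:167304929-167330558 and Tlr8 at chrX:167242696-167264329, both on the minus strand, so that the RNA receptors are neighbours on the X chromosome. Tlr9 lies at chr9:106222598-106226883 on the plus strand and Myd88 at chr9:119335934-119341411 on the minus strand. Unc93b1 occupies chr19:3935186-3949340 and Irf5 chr6:29526625-29541871, both on the plus strand.

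RefSeq promoter windows on GRCm38.p6, from 250 bases before the transcript start to 50 after it, were matched by symbol for 6 of the 10 genes: Tlr2, Irf5, Tlr9, Myd88, Irak4 and Tlr8. No window was printed for Tlr7, Tlr4, Cd14 or Unc93b1. Both strands were searched for an interferon response motif (GAAA, any 2 bases, GAAA), for GAGGAA, the core bound by the myeloid factor PU.1, and for an NF-kB motif (GGGA, any 2 bases, TTCC). The first was found in the Myd88 window, beginning 40 bases before the start, and in 3.44% of 32851 promoters. The second was found in the windows of Tlr8 and Tlr9 and in 28.3% of promoters. The third, in 1.47% of promoters, was found in none of the 6. The 3 windows with a match are shown 5′ to 3′ on the gene's strand, since they belong to Myd88, the adaptor shared by these receptors, and to a pair of nucleic acid receptors. Capitals mark the matched letters, TTCCTC being the second motif on the opposite strand, and no matches overlap. A match of letters is a description of the sequence only.
Myd88, chr9:119339969-119340268, minus strand: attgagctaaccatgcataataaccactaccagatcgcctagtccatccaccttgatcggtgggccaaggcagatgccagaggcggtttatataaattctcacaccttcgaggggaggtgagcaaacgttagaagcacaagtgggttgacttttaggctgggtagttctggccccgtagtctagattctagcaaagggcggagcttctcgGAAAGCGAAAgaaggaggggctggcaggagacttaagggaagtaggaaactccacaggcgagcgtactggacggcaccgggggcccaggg
Tlr8, chrX:167264280-167264579, minus strand: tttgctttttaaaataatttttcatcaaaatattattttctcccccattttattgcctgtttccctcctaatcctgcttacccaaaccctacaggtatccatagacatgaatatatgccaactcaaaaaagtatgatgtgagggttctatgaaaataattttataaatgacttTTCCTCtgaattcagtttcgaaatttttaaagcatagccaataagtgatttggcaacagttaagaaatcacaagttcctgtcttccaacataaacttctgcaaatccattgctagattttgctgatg
Tlr9, chr9:106222348-106222647, plus strand: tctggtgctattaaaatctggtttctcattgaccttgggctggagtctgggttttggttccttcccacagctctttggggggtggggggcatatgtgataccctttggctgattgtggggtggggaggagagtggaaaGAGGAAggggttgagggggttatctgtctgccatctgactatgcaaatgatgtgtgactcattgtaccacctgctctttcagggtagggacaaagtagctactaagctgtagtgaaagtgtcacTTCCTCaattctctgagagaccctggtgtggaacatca

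Tlr7 reads came mostly from monocyte/macrophage-like cells. Of 485 Tlr7 UMIs in all cells, 394 (81.2%) were in myeloid cells, and 355 (73.2%) in monocyte/macrophage-like cells, the sum of the resident macrophage-like and monocyte-like subsets. Keratinocytes held 10 UMIs, fibroblasts 18, lymphocytes 20 and endothelial cells 1, and sub-clusters of mixed cells that were taken out of the myeloid class held another 34. In resident macrophage-like cells the Tlr7 level was 15.4 and 54.1 UPM in the Sham libraries, 31.1 and 32.4 for IMQ, and 24.0 and 17.9 for IMQ+SHP099. In monocyte-like cells it was 51.7 UPM in Sham replicate 2, 26.2 and 44.3 for IMQ, and 18.4 and 41.4 for IMQ+SHP099. A value for a subset is given only for a library with at least 20 of its cells, and Sham replicate 1 had 1 monocyte-like cell. The ranges of both subsets overlapped. In resident macrophage-like cells both IMQ values lay above both IMQ+SHP099 values and between the Sham values, and in monocyte-like cells the single Sham value lay above the other 4. These orders rest on few UMIs. In resident macrophage-like cells the lower Sham value was 2 UMIs and the IMQ+SHP099 values were 3 and 4. In monocyte-like cells the Sham value was 5 UMIs and the lower IMQ+SHP099 value 2.

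Below these subsets the order of Tlr7 medians over libraries was neutrophil-like cells (10.5 UPM, 0 to 26.1), an unnamed myeloid sub-cluster (7.41 UPM, 0 to 22.6) and Xcr1 dendritic-like cells (5.43 UPM, 0.619 to 5.96), and each overlapped its neighbour in that order. The unnamed sub-cluster of 142 cells was led by Cd7, Ifnb1, Ifit2 and Klrd1 and showed 2 of 6 plasmacytoid dendritic markers, too few for a name. It held 11 of the Tlr7 UMIs. Lymphocytes followed at a median of 1.41 UPM, and fibroblasts, mural cells and keratinocytes had medians of 0.102, 0.0628 and 0.0350 UPM. Medians here and below are over the libraries with a value, so that subsets mix the groups differently. Neutrophil-like cells have no Sham value, and Cd209a dendritic-like cells have only Sham values.

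Unc93b1 was highest in resident macrophage-like cells. In resident macrophage-like cells its level was 801 and 715 UPM for Sham, 629 and 703 for IMQ, and 768 and 768 for IMQ+SHP099. All 6 values lay above every value of every other subset and class, the next being monocyte-like cells at 211 to 424 UPM. Xcr1 dendritic-like cells had 124 to 289 UPM, and keratinocytes 3.21 to 6.35 UPM.

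Langerhans-like cells, the antigen-presenting cells of the epidermis, had almost no reads of the endosomal receptors or their chaperone. The 374 cells of this subset gave 4307392 UMIs, of which 0 were Tlr7, 0 were Tlr8, 2 were Tlr9 and 2 were Unc93b1. A count of 0 allows a level of up to 0.697 UPM (3 counts), a limit of counting error only. In the same cells Irf5 had 534 UMIs (124 UPM), Myd88 246 UMIs (57.1 UPM) and Tlr2 204 UMIs (47.4 UPM). Cd14 had 208 UMIs (48.3 UPM), Irak4 60 UMIs (13.9 UPM) and the surface receptor Tlr4 only 6 UMIs (1.39 UPM). Tlr2, Cd14 and the signal proteins were thus read there, and Tlr4 hardly.

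**Figure D1:**
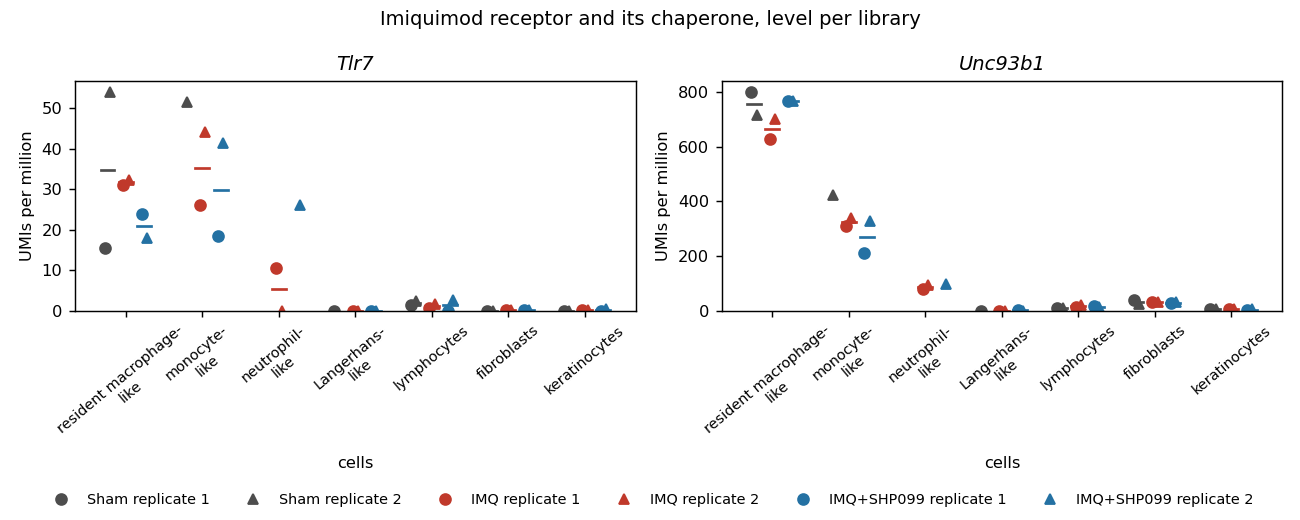
Levels of Tlr7 (left) and Unc93b1 (right) in UPM for 7 classes or subsets on the x axis, with 1 point per library, colour for group, marker shape for replicate, and a line at the mean where both libraries of a group have a value. Unc93b1 lies between 629 and 801 in resident macrophage-like cells of all 6 libraries, while Tlr7 spreads from 15.4 to 54.1 there and both genes are near 0 in Langerhans-like cells.

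Tlr8 and Tlr9 were read from few molecules. Tlr8 had 101 UMIs in all, 95 of them in myeloid cells, and its level was highest in resident macrophage-like cells, at 7.70 and 10.5 UPM for Sham, 18.6 and 15.0 for IMQ, and 24.0 and 22.3 for IMQ+SHP099. These 6 values lay above the highest monocyte-like value, 6.01 UPM. Within resident macrophage-like cells the values did not overlap between groups, but they rest on few molecules. The share of all genes that separate in this way was not counted. The counts were 1 and 13 UMIs for Sham, 9 and 6 for IMQ, and 3 and 5 for IMQ+SHP099. Sham replicate 1 lay under its floor of 3 counts (23.1 UPM), and IMQ+SHP099 replicate 1 lay at its floor (24.0 UPM). The subset holds only 33 to 369 cells per library, and no test was made on it for Tlr8 by itself. Tlr9 had 30 UMIs in all, 27 of them in myeloid cells, and none in keratinocytes, endothelial cells or lymphocytes. Its medians were 3.85 UPM in resident macrophage-like, 3.32 in Cd209a dendritic-like and 2.72 in Xcr1 dendritic-like cells, and their ranges overlapped.

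The surface receptors were spread over more classes. Tlr2 was highest in monocyte-like cells, with a median of 234 UPM (119 to 382), and in neutrophil-like cells, with 194 UPM (170 to 199), ranges that overlapped. Resident macrophage-like, Langerhans-like and Cd209a dendritic-like cells had medians of 58.4, 50.4 and 78.8 UPM, and fibroblasts 15.0 UPM. Tlr4 was read mostly outside myeloid cells. Its median was 36.2 UPM in neutrophil-like cells, 23.2 in resident macrophage-like cells, 20.4 in fibroblasts and 15.2 in monocyte-like cells, and each of these overlapped the next. Myeloid cells held 7.32% of the Tlr4 UMIs of all cells, and they were 2.34% to 12.1% of the cells of each library.

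Cd14 was highest in neutrophil-like cells and next in monocyte-like cells. Neutrophil-like cells had 3553 and 2223 UPM in IMQ and 2747 in IMQ+SHP099 replicate 2, the other 3 libraries having under 20 of these cells. Monocyte-like cells had 454 UPM in Sham replicate 2, 1104 and 724 for IMQ, and 644 and 885 for IMQ+SHP099, and none of these reached the lowest neutrophil-like value. Resident macrophage-like cells had 339 and 230 UPM for Sham, 112 and 117.2 for IMQ, and 112 and 143 for IMQ+SHP099, so that the Sham values lay above the other 4 here. Mast or basophil-like cells had no Cd14 UMI in the 3 libraries with a value.

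The signal proteins were read in every major class. Myd88 ranged from a median of 123 UPM in neutrophil-like cells and 93.6 in resident macrophage-like cells to 53.3 in fibroblasts, 38.7 in keratinocytes and 34.7 in lymphocytes. Irak4 medians were 34.2 UPM in resident macrophage-like cells, 27.9 in monocyte-like cells and 7.76 in keratinocytes. Irf5 was concentrated in antigen-presenting and monocyte-derived subsets, with medians of 153 UPM in monocyte-like, 140 in Xcr1 dendritic-like, 125 in Langerhans-like and 84.1 in resident macrophage-like cells, whereas neutrophil-like cells had 23.7 and keratinocytes 6.70 UPM. The neutrophil-like range of Irf5, 18.7 to 34.1 UPM, did not overlap that of any of those 4 subsets.

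**Figure D2:**
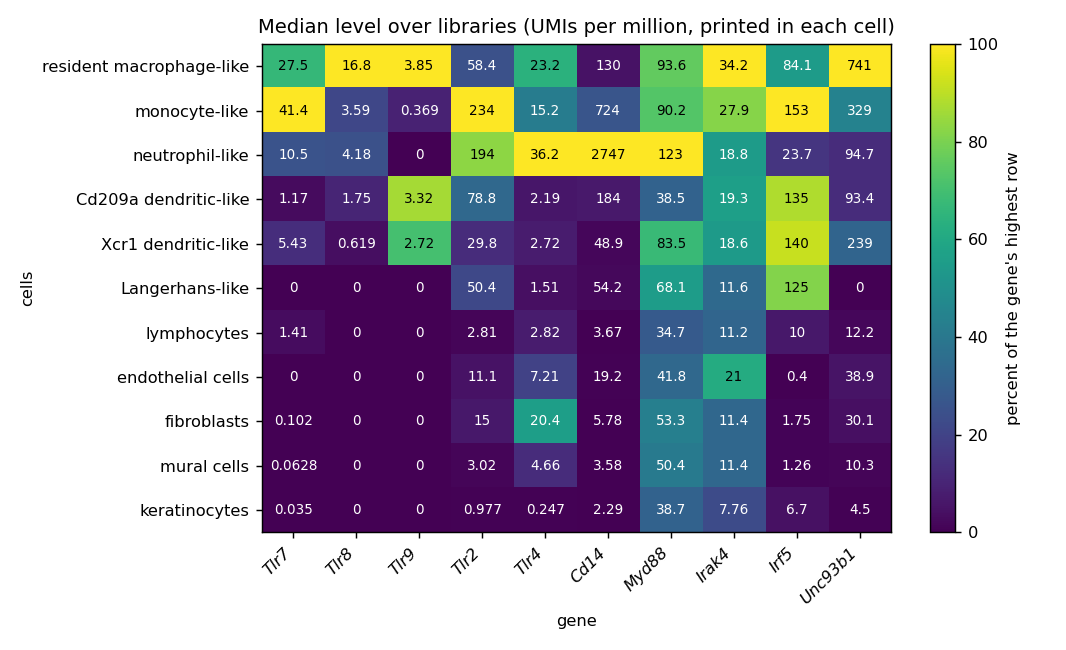
Median level over libraries, in UPM, of the 10 genes (columns) in 11 classes and myeloid subsets (rows), printed in each cell and coloured as a percent of the highest value of that gene. Unc93b1 and Tlr8 are highest in resident macrophage-like cells (741 and 16.8), Tlr7, Tlr2 and Irf5 in monocyte-like cells (41.4, 234 and 153), and Cd14, Tlr4 and Myd88 in neutrophil-like cells (2747, 36.2 and 123).

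Class was compared with class within the same libraries, by edgeR's quasi-likelihood test on summed counts with the library as a block and Benjamini-Hochberg adjustment over all genes tested. All 8 members tested were higher in myeloid cells than in keratinocytes. At this threshold (adjusted p under 0.05) 63.3% of all genes tested differed between these classes, and 29.4% were higher in myeloid cells. Cd14 was higher by 7.36 ± 0.40 on the log2 scale (± SE, edgeR adjusted p = 7.39e-07), and Tlr7 by 7.87 ± 0.48 (edgeR adjusted p = 1.44e-06). The smallest difference was that of Myd88, 0.96 ± 0.17. Tlr8 and Tlr9 did not pass the filter on low counts. In keratinocytes Tlr7 was at 0 to 0.285 UPM, Tlr4 at group means of 0.190 to 0.487 UPM and Tlr2 at 0.690 to 1.63 UPM. These genes passed the filter only through their myeloid sums, so that for them the test could only call a higher myeloid level. Cd14, at 0.781 UPM in keratinocytes of Sham replicate 1, also did not pass on its keratinocyte sums by themselves.

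Against fibroblasts, 6 of the 7 members tested were higher in myeloid cells, beside 66.9% of all genes that differed and 32.4% that were higher. Irf5 and Cd14 were higher by 6.53 ± 0.20 and 6.58 ± 0.48 on the log2 scale. Tlr4 was the exception, at -0.45 ± 0.40 (edgeR adjusted p = 0.338), with 1.40, 11.9, 12.2, 17.7, 3.78 and 20.4 UPM in myeloid cells and 14.6, 9.63, 22.7, 21.5, 19.2 and 32.9 UPM in fibroblasts of the same 6 libraries. Irf5 was at group means of 1.40 to 2.21 UPM in fibroblasts. It passed the filter on low counts only with its myeloid sums, so that a lower myeloid level could hardly have been called. Tlr7 did not pass the filter here. Its fibroblast levels were 0 to 0.230 UPM, and its myeloid level in Sham replicate 1 was 1.40 UPM.

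Within the myeloid class, monocyte/macrophage-like cells were set against the other myeloid cells. Of 8 members tested, 2 were higher and none lower, beside 21.4% of all genes that differed and 9.65% that were higher. Tlr7 was higher by 3.46 ± 0.49 on the log2 scale (edgeR adjusted p = 9.99e-04) and Unc93b1 by 2.75 ± 0.53 (edgeR adjusted p = 0.00552). Other myeloid cells had Tlr7 at 0 to 10.2 UPM, so that it passed the filter on low counts mainly through the monocyte/macrophage-like sums. Cd14 differed by 0.35 ± 0.40 and Irf5 by 0.04 ± 0.24, and neither passed. The counts of these 3 class comparisons were within 1.5 times the values given under each of the 12 alternatives run.

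The first question between groups was whether imiquimod-treated skin differed from untreated skin in the level of its own receptor. In monocyte/macrophage-like cells the Tlr7 level was 14.7 and 53.9 UPM for Sham, 27.0 and 42.6 for IMQ, and 21.4 and 38.4 for IMQ+SHP099. The Sham values enclosed all 4 others, but the lower of them was 2 UMIs in 47 cells, under its floor of 3 counts (22.1 UPM). The lower IMQ+SHP099 value was 5 UMIs. The log2 difference of IMQ from Sham was -0.11 ± 0.40 (edgeR adjusted p = 0.903) and that of IMQ+SHP099 from IMQ was 0.04 ± 0.40 (edgeR adjusted p = 1.0). In all myeloid cells the levels were 1.40 and 11.8 UPM for Sham, 16.1 and 21.9 for IMQ, and 3.15 and 29.5 for IMQ+SHP099, where IMQ lay above Sham at 1.57 ± 0.99 (edgeR adjusted p = 0.623). The make-up of the myeloid class moved with the groups. Monocyte-like cells numbered 1 and 25 for Sham, 400 and 377 for IMQ, and 26 and 272 for IMQ+SHP099, and resident macrophage-like cells 46 and 369, 79 and 69, and 33 and 47. The part of this shift in the sums was not tested.

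The share of cells with a Tlr7 UMI was taken before and after cells were brought to an equal depth. That step removes UMIs, so that a fall of the share is nearly fixed in advance. Among monocyte/macrophage-like cells the share before it was 4.26% (95% Clopper-Pearson interval 0.520% to 14.5%) and 14.5% (11.1% to 18.3%) for Sham, 14.6% (11.6% to 18.1%) and 21.7% (18.0% to 25.9%) for IMQ, and 6.78% (1.88% to 16.5%) and 16.9% (13.0% to 21.5%) for IMQ+SHP099. The median UMIs of these cells were 2363 and 2634 for Sham, 6976 and 6752 for IMQ, and 3498 and 5585 for IMQ+SHP099. With each cell thinned to 2000 UMIs and shallower cells left out, the shares were 0 (27 cells) and 9.13% for Sham, 5.995% and 6.48% for IMQ, and 2.38% and 6.25% for IMQ+SHP099. The IMQ shares lay above both Sham shares before thinning and between them afterwards. Exact two-sided permutation tests over the libraries gave p = 0.3333 before and p = 1.0 after thinning, 0.3333 being the smallest that 2 against 2 libraries can give. Droplets also hold free RNA, and in keratinocytes, the class taken for comparison although the data do not show that it lacks this receptor, 0 to 0.426% of cells had a Tlr7 UMI at median depths of 9658 to 35060 UMIs. The shares of monocyte/macrophage-like cells lay above those of keratinocytes at a lower depth.

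Of the 10 genes, Cd14 and Myd88 rose in keratinocytes after imiquimod. Cd14 was at 0.781 and 1.29 UPM for Sham, 4.94 and 4.35 for IMQ, and 2.30 and 2.28 for IMQ+SHP099, with no overlap between the groups. The rise from Sham to IMQ was 2.48 ± 0.40 on the log2 scale, a fold of 5.59 (edgeR adjusted p = 0.00662). Myd88 was at 24.1 and 34.5 UPM for Sham, 45.7 and 41.9 for IMQ, and 35.5 and 44.6 for IMQ+SHP099, a rise to IMQ of 0.88 ± 0.23 (edgeR adjusted p = 0.0433). These were 2 of 7 members tested, both higher, beside 12.0% of all genes tested that differed, 4.90% higher and 7.08% lower. Without IMQ replicate 1 neither gene passed (edgeR adjusted p = 0.0714 for Cd14 and 0.442 for Myd88). Myd88 also lost its call without Sham replicate 1 (0.0753), Sham replicate 2 (0.0659) or IMQ replicate 2 (0.225), and with the limit on mitochondrial UMIs set at 5% (0.0536), with log2 differences of 0.76 to 1.01. Different clusters held the keratinocytes of each group, 40.3% of those of Sham in cluster 0 and 28.1% in cluster 1, and 36.0% of those of IMQ in cluster 6 and 35.9% in cluster 11.

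Irf5 lay lower in keratinocytes of treated mice without passing the test. It was at 12.9 and 12.8 UPM for Sham, 5.32 and 6.05 for IMQ, and 6.65 and 6.75 for IMQ+SHP099, a difference of -0.93 ± 0.30 between IMQ and Sham (edgeR adjusted p = 0.0780). The Sham values lay clear of the other 4. It passed, and was lower in IMQ, with per-cell marker gates in place of clusters (edgeR adjusted p = 0.0493, beside 14.9% of all genes), with the mitochondrial limit at 5% (0.0422, beside 14.4%), without Sham replicate 2 (0.0335, beside 13.2%) and without the 2 keratinocyte-rich libraries (0.0487, beside 40.5%). The remaining tested members were Tlr2, Tlr4, Irak4 and Unc93b1, and their adjusted p was 0.148 or higher.

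Myeloid transcripts in keratinocytes were counted beside Cd14. The list of 16 myeloid markers summed to 18.2 and 25.2 UPM in Sham keratinocytes, 17050 and 12320 for IMQ, and 16790 and 19620 for IMQ+SHP099. Nearly all of it in the treated groups was S100a9, which inflamed keratinocytes are known to make, at 2.11 and 0.345 UPM in Sham and 12280 to 19580 in the other 4 libraries. The other 15 markers summed to 16.1 and 24.9 UPM for Sham, 42.8 and 40.2 for IMQ, and 14.8 and 30.5 for IMQ+SHP099, the IMQ values lying above both Sham values. Their part in the Cd14 result was not tested. Of the defining markers, Mcpt8 was at 0 in 4 of 6 libraries, Csf3r in Sham replicate 1, and Cd207 and Cpa3 in IMQ+SHP099 replicate 2. Per 100 UMIs of Tyrobp, an adaptor of myeloid cells, keratinocytes held 36.4, 63.1, 74.0, 59.0, 203 and 70.6 Cd14 UMIs in the order of the libraries above, and myeloid cells 4.90, 16.2, 35.5, 32.4, 9.50 and 29.8. The ratio of Cd14 to Tyrobp was higher in keratinocytes than in myeloid cells in all 6 libraries. The myeloid ratio pools subsets with unlike Cd14 levels, such as IMQ means of 2888 UPM in neutrophil-like and 114.5 in resident macrophage-like cells. The source of the Cd14 UMIs in keratinocytes was not tested.

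In monocyte/macrophage-like cells 1 of 9 members tested passed, beside 10.1% of all genes tested, 4.73% being higher and 5.41% lower. Cd14 was at 339 and 246 UPM for Sham, 954 and 640 for IMQ, and 359 and 788 for IMQ+SHP099, higher in IMQ by 1.69 ± 0.48 on the log2 scale (edgeR adjusted p = 0.0492). Within resident macrophage-like cells by themselves the sign was the opposite, -1.30 (edgeR adjusted p = 0.155), and the IMQ sums held many more monocyte-like cells than the Sham sums. The call was lost without Sham replicate 2 (edgeR adjusted p = 0.356), IMQ replicate 1 (0.425) or IMQ replicate 2 (0.115). Tlr2 was at 22.1 and 116 UPM for Sham, 276 and 213 for IMQ, and 72.7 and 158 for IMQ+SHP099, a difference of 1.83 ± 0.53 (edgeR adjusted p = 0.0514). Myd88 differed by 1.04 ± 0.33 (edgeR adjusted p = 0.0672), Tlr4 by -1.08 ± 0.40 (edgeR adjusted p = 0.113) and Unc93b1 by -0.74 ± 0.34 (edgeR adjusted p = 0.199), and none of these passed. Tlr9 was not tested.

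**Figure D3:**
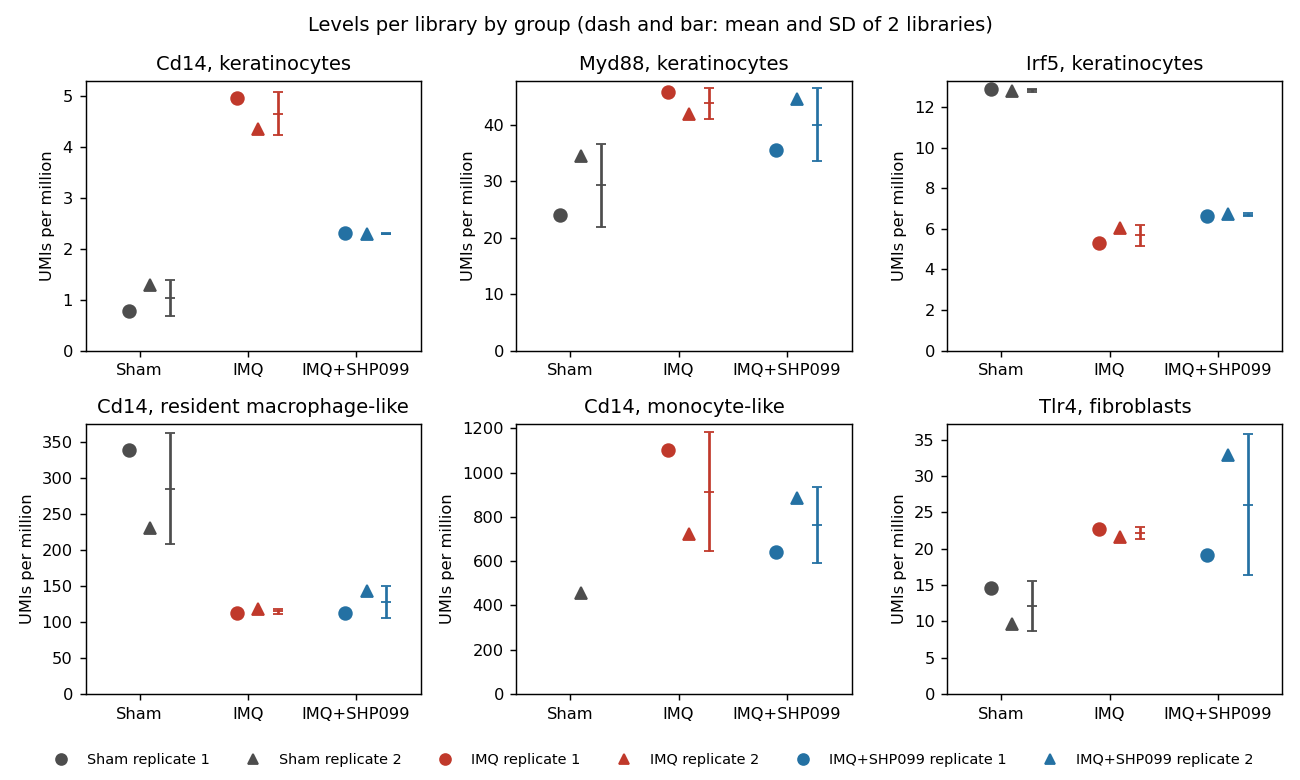
Levels per library in UPM (y axis) by group (x axis) for Cd14, Myd88 and Irf5 in keratinocytes, Cd14 in resident macrophage-like and in monocyte-like cells, and Tlr4 in fibroblasts, with circles for replicate 1, triangles for replicate 2, and a dash and bar for the mean and SD of 2 libraries. Cd14 in keratinocytes rises from 0.781 and 1.29 in Sham to 4.94 and 4.35 in IMQ, while in resident macrophage-like cells it is highest in Sham.

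In fibroblasts no member passed, beside 0.762% of all genes tested. By edgeR 3 of 7 members had an unadjusted p under 0.05, beside 12.3% of all genes, and DESeq2 called 1, Cd14, beside 4.64%. Cd14 was at 2.79 and 2.84 UPM for Sham, 7.25 and 5.96 for IMQ, and 5.60 and 7.37 for IMQ+SHP099, a difference of 1.32 ± 0.34 between IMQ and Sham (edgeR adjusted p = 0.149). Tlr4 was at 14.6 and 9.63 UPM for Sham, 22.7 and 21.5 for IMQ, and 19.2 and 32.9 for IMQ+SHP099, a difference of 0.93 ± 0.37 (edgeR adjusted p = 0.364). For both genes the Sham values lay below all 4 others. Fibroblasts also came from different clusters, 51.2% of those of Sham from cluster 13 and 30.3% of those of IMQ from cluster 29.

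In the sums over all cells, endothelial cells, lymphocytes and all myeloid cells, edgeR called no member between IMQ and Sham, and 0 genes in each (0%). The members with an unadjusted p under 0.05 numbered 2, 1, 0 and 3, beside 7.28%, 11.8%, 12.5% and 11.1% of all genes. DESeq2 called 0, 0, 0 and 1, the last being Cd14, beside 3.30%, 1.09%, 1.93% and 2.72%. In myeloid cells Cd14 was at 87.9 and 187 UPM for Sham, 954 and 850 for IMQ, and 157 and 855 for IMQ+SHP099, a log2 difference of 2.94 ± 0.82 (edgeR adjusted p = 0.302). In a sum over all cells, fewer cells of a type and less RNA per cell cannot be told apart.

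Leaving out the 2 keratinocyte-rich libraries changed these counts. Each of Sham and IMQ+SHP099 then has 1 library, assumed to vary like the IMQ pair. Between IMQ and Sham, edgeR then called 4 members in myeloid cells (Cd14, Myd88, Tlr2 and Tlr7) beside 20.6% of all genes, 6 in monocyte/macrophage-like cells beside 34.5%, 3 in fibroblasts beside 13.8% and 3 in keratinocytes beside 40.5%. Tlr7 in myeloid cells was then higher in IMQ by 1.02 on the log2 scale (edgeR adjusted p = 0.0367), but not in monocyte/macrophage-like cells.

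The second question was whether SHP099 given with imiquimod altered these levels. The comparison shares its IMQ libraries with the first. In all 7 sums edgeR called 0 members and 0% of genes, and DESeq2 called no member and 0% to 0.0943% of genes. By edgeR 1 member in 1 sum had an unadjusted p under 0.05, beside 2.40% of all genes of that sum, and this was Cd14 in keratinocytes, at 4.94 and 4.35 UPM in IMQ and 2.30 and 2.28 in IMQ+SHP099, a difference of -0.87 ± 0.38 (unadjusted p = 0.0486, edgeR adjusted p = 1.0). Both IMQ+SHP099 values lay below both IMQ values and above both Sham values. Standard errors on the log2 scale were 0.23 to 0.70 among the 7 keratinocyte members, and in myeloid cells 0.96 for Tlr7 and 0.76 for Cd14. A difference of the size of that of Cd14 in keratinocytes was not called. The absence of a call therefore does not show that levels were unchanged.

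**Figure D4:**
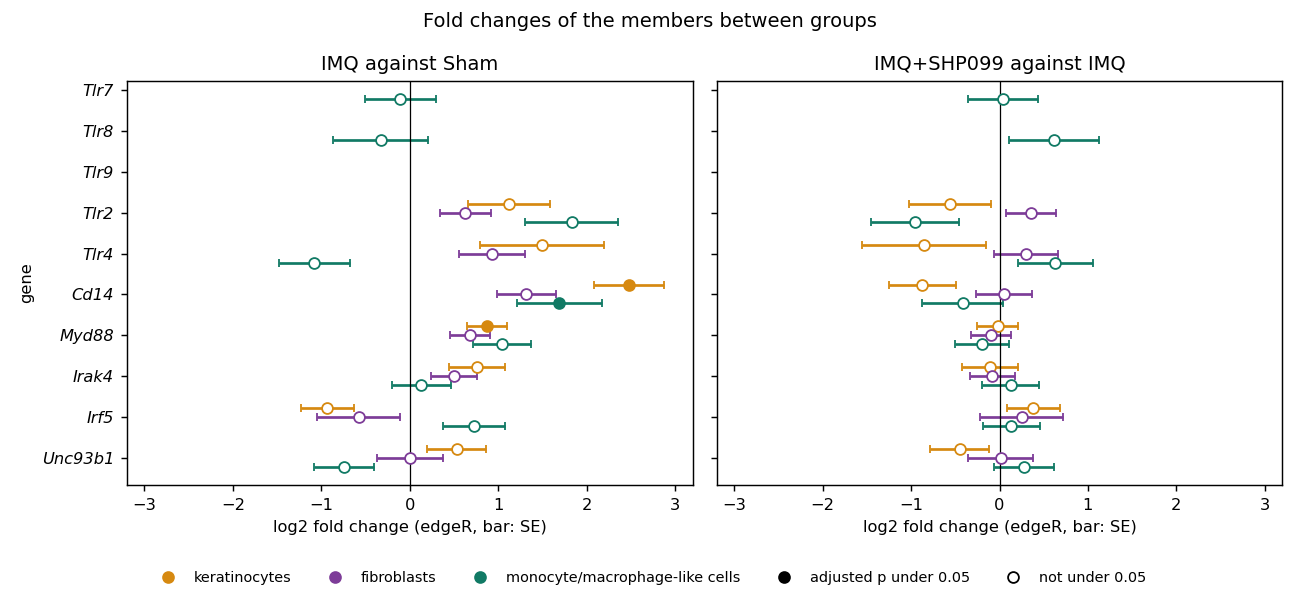
Log2 fold changes (x axis, edgeR, bars are SE) of each gene (y axis) in keratinocytes, fibroblasts and monocyte/macrophage-like cells, for IMQ against Sham on the left and IMQ+SHP099 against IMQ on the right. Filled points, with an adjusted p under 0.05, are Cd14 (2.48) and Myd88 (0.88) in keratinocytes and Cd14 (1.69) in monocyte/macrophage-like cells, all on the left.

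Another 43 genes of Toll-like receptor signalling were followed in the same fits. Between IMQ and Sham, 3 of 37 tested rose in keratinocytes and none fell, beside 4.90% of all genes that rose and 7.08% that fell, with a median log2 difference of 0.02 against -0.08 over all genes. These were Plscr1, an interferon-induced membrane protein, by 3.37 ± 0.43, Slc15a3, an endosomal peptide transporter, by 2.01 ± 0.43, and Lbp, which delivers lipopolysaccharide to Cd14, by 1.48 ± 0.27. Plscr1 stood at 0.911 and 0.816 UPM in Sham and at 8.46 and 6.81 in IMQ.

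In monocyte/macrophage-like cells 3 of 40 tested rose and 2 fell, beside 4.73% of all genes that rose and 5.41% that fell, the median of the list being -0.03 against 0.0003 over all genes. Irak2, a kinase of the Myd88 complex, rose by 1.62 ± 0.34, Irak3, a member of the same family that restrains it, 2.84-fold, and Cd300a, an inhibitory receptor, by 1.26 ± 0.36. Tlr3, the receptor for double-stranded RNA, fell by 2.39 on the log2 scale, with 7.37 and 14.2 UPM in Sham and 1.88 and 2.06 in IMQ. Its value in Sham replicate 1 was 1 UMI in 47 cells, under the floor of 3 counts there (22.1 UPM). The scavenger receptor Cd36 fell by 1.83, with 22.1 and 124 UPM in Sham and 22.9 and 20.97 in IMQ. Sham replicate 1 lay at the IMQ level for this gene, and at its floor. Resident macrophage-like cells made up most of the Sham sums and monocyte-like cells most of the IMQ sums. The part of this shift in the changes above was not tested. In the other 5 sums 0 of the listed genes passed, and 0 passed between IMQ+SHP099 and IMQ in any sum.

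Across classes, 26 of 38 pathway genes tested were higher and 1 lower in myeloid cells than in keratinocytes, beside 29.4% of all genes that were higher and 33.9% that were lower. The largest differences were those of Ctss, a lysosomal protease that cleaves the endosomal receptors (9.84 ± 0.29), Cd300a (9.57 ± 0.23) and the transcription factor Irf8 (8.29 ± 0.31), and the gene that was lower was Tollip, an inhibitor of the pathway (-1.30 ± 0.21). Against fibroblasts 21 of 38 were higher and 5 lower, beside 32.4% and 34.5% of all genes, Lbp the furthest at -5.66 ± 0.54. Within the myeloid class 9 of 38 were higher and 2 lower in monocyte/macrophage-like cells, beside 9.65% and 11.8% of all genes, and the named ones included the lysosomal proteases Lgmn, Ctsl and Ctsb, Cd36 (2.20 ± 0.38), the Tlr4 adaptor Ticam2 (2.02 ± 0.41) and the Tlr4 partner Ly96 (1.91 ± 0.26).

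The genes whose levels were most like those of a member were found by Pearson's r of log2(UPM + 1) over 79 sums of 15 classes and subsets, which share libraries and depth, among 10606 genes. For Tlr7 they were Gm36161 (r = 0.87), Fcgr1 (0.82), a receptor for immunoglobulin G, and Gm5150 (0.81). For Cd14 they were Bst1 (0.83), Cybb (0.80), a subunit of the phagocyte oxidase, and Cd300c2 (0.80). For Tlr2 they were Bst1 (0.78), Oas1a (0.78) and Tnfrsf1b (0.77), and for Tlr9, with its few UMIs, P2ry6 (0.62), Clec4a1 (0.61) and Gm36161 (0.61).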

How the data were processed

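Per the labels and the study's methods, the authors made the deposited count matrices with Cell Ranger on mm10 (GRCm38). They hold raw UMI counts per gene and barcode, with no normalization. A barcode was left out at 100000 UMIs, 6500 genes or 10% of UMIs from mitochondria, or above. Cells were clustered without the 10 members (scanpy 1.11.5, Python 3.11.15, 3000 variable genes, 30 components, 20 neighbours, Leiden resolution 0.8, no integration), and clusters were named from marker lists where at least 3 markers were raised. Sub-clusters led by markers of another class were taken out of the myeloid class as mixed, 49.0% of the myeloid clusters in Sham replicate 1 and 6.35% to 22.2% elsewhere. Doublets stayed in. Scrublet's own threshold called none in 3 libraries, so that the alternative without doublets used a score limit of 0.25. The members and lists were chosen with earlier results of these data known.

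Counts were summed per library and class and tested by edgeR 4.0.16 (R 4.3.3; glmQLFit, TMM, filterByExpr, all 6 libraries in 1 fit, group as the only term, Benjamini-Hochberg over all genes of a sum, threshold 0.05), a step also tested on simulated data. SE is the log2 fold change divided by the root of F. Libraries are pools of mice, so p-values measure only the spread between 2 pools per group. DESeq2 1.42.0 was an alternative, with RLE size factors, no filter on low counts, only the 2 groups, a replicate block, each library left out, per-cell marker gates, resolution 1.6, no doublets and a mitochondrial limit of 5%. Shares have 95% Clopper-Pearson intervals, and intervals and floors (3 counts) cover counting error only. All 10 members are named, at most 6 pathway genes past the threshold per sum by size of change, and the 3 genes most like Tlr7, Tlr9, Tlr2 and Cd14. Levels of different genes are not compared. Where values of groups are said not to overlap, the share of all genes that separate in this way was not counted.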

Additional observations from a re-analysis of the deposited data

How the results depend on the processing

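No alternative gave a member past the threshold between IMQ+SHP099 and IMQ, except 1 in endothelial cells with no filter on low counts, beside 0.677% of all genes. For IMQ against Sham, the number of members past the threshold changed as follows. With no filter on low counts it was 2 in fibroblasts, 1 in endothelial cells, 3 in myeloid cells and 2 in monocyte/macrophage-like cells, beside 6.32%, 4.12%, 3.35% and 9.66% of all genes. With DESeq2 it was 1 in fibroblasts, 1 in myeloid cells and 2 in monocyte/macrophage-like cells, beside 4.64%, 2.72% and 4.03%. With only the 2 groups in the fit it was 1 in myeloid and 3 in monocyte/macrophage-like cells, beside 2.17% and 14.3%. In keratinocytes it was 3 with per-cell marker gates (Cd14, Irf5 and Myd88) and stayed at 2 with the mitochondrial limit of 5%, where Irf5 stood in place of Myd88. In the last sum it was 0 with RLE size factors, with per-cell marker gates, with the mitochondrial limit of 5% and with resident macrophage-like cells only, and 2 with doublets left out, beside 10.5%. With 1 library left out it ranged from 0 to 3 in keratinocytes and in monocyte/macrophage-like cells, and from 0 to 1 in endothelial and in myeloid cells. Without the 2 keratinocyte-rich libraries, a choice made after seeing the data, it was 1 in all cells, 1 in endothelial cells, 3 in fibroblasts, 3 in keratinocytes, 4 in myeloid cells and 6 in monocyte/macrophage-like cells, beside 4.61%, 20.7%, 13.8%, 40.5%, 20.6% and 34.5% of all genes. The causes were not tested.

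Replicate numbers were shared by the groups, but with 2 pairs nothing shows that they pair the libraries, and the correlation of same-numbered deviations was 0.47 over all cells, 0.128 in keratinocytes and 0.0644 in monocyte/macrophage-like cells for IMQ against Sham. With the replicate block the count was 2 in monocyte/macrophage-like cells (Cd14 and Tlr2), beside 8.23%, and no other count moved.

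The Tlr7 difference of IMQ from Sham in monocyte/macrophage-like cells turned positive with DESeq2 (0.042), the replicate block (0.18), per-cell marker gates (0.26), and without Sham replicate 2 (1.37) or IMQ replicate 1 (0.25). That of IMQ+SHP099 from IMQ there turned negative with DESeq2 (-0.074), no filter (-0.0052), the block (-0.18), gates (-0.051), resolution 1.6 (-0.041), resident macrophage-like cells only (-0.56), and without IMQ replicate 1 (-0.31) or IMQ+SHP099 replicate 2 (-0.71). In myeloid cells it turned positive without IMQ replicate 2 (0.10), IMQ+SHP099 replicate 1 (0.67) or both keratinocyte-rich libraries (0.67). Cd14 in monocyte/macrophage-like cells was -1.30 with resident macrophage-like cells only, also chosen after seeing the data. With 1 library left out, these Tlr7 differences ranged from -0.34 to 1.37 for IMQ against Sham and from -0.71 to 0.28 for IMQ+SHP099 against IMQ in monocyte/macrophage-like cells, and from -2.66 to 0.67 for the latter in myeloid cells. No adjusted p of the reversed values was under 0.05. Thinning to 2000 UMIs moved the mean Tlr7 share to 3.66% in IMQ myeloid cells, and to 6.24% in IMQ and 4.32% in IMQ+SHP099 monocyte/macrophage-like cells. Depth limits Tlr8 and Tlr9 most, with 101 and 30 UMIs in all.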
